A study of Mus musculus with 6 samples.

Results

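This account covers 9 genes that carry the interferon signal from the cell surface to the nucleus, out of 56262 genes counted in mouse lung. They were taken by name from a list of interferon receptor chains (Ifnar1, Ifnar2, Ifngr1 and Ifngr2), Janus kinases (Jak1, Jak2 and Tyk2) and transcription factors (Stat2 and Irf9). All 9 were found in the table, and all 9 passed the filter on low counts that left 17120 genes for testing. Bulk RNA-seq was done on untreated lungs at 8 weeks of age, from 3 R/R mice and from 3 littermates of WT genotype. R/R mice carry the K329R and K332R substitutions in both copies of Rbm47, which encodes an RNA-binding protein, and were made by knock-in on the C57BL/6 background. The substitutions remove the lysines at which mouse RBM47 is modified by ISG15, and WT mice carry no engineered allele. The alleles are carried in the germline rather than in 1 cell type, and the lung was sequenced whole, so that a lower level of a transcript in fewer cells of a type cannot be told apart from less RNA per cell.

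Type I interferons bind a receptor made of IFNAR1 and IFNAR2, whose tails hold the kinases TYK2 and JAK1. Type II interferon, IFN-γ, binds IFNGR1 and IFNGR2, which work with JAK1 and JAK2. The type I signal assembles STAT2 and IRF9 into ISGF3, a complex that binds the interferon-stimulated response element (ISRE) of antiviral genes, whereas IFN-γ mainly acts through the GAS element. STAT2 and IRF9 are themselves encoded by interferon-stimulated genes, so they are both parts and outputs of the pathway. RBM47 has been described as an interferon-stimulated protein that preserves the mRNA of Ifnar1, which makes the levels of the receptor chains in R/R lungs a question of their own.

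Between 16501092 and 18141067 read pairs were counted on genes per lung, and 1 read pair was worth 0.0551 to 0.0606 CPM, the unit used here, in which counts are scaled to a common library total. Rbm47 mRNA itself stood at 32.7, 33.5 and 34.1 CPM across R/R replicates 1 to 3 and at 28.8, 30.5 and 34.4 CPM across WT replicates 1 to 3 (log2 fold change 0.10 ± 0.08 SE, adjusted p = 0.66 by edgeR's quasi-likelihood test), and gene counts do not show the substituted codons. Markers of lung tissue were present in all 6 lungs, with the 7 alveolar type 2 markers summing to between 17571 and 23593 CPM. WT replicate 3 was the lowest WT lung for 26 of the 36 ISGF3 target genes described further on, and WT replicates 1 and 2 for 5 each. How often each lung was the lowest over all tested genes was not counted, so this is not shown to be particular to interferon-stimulated genes. Without WT replicate 3 the log2 fold changes of Ifnar1 and Jak2 were -0.004 and -0.05, of the opposite sign to those given below and not called (adjusted p = 0.987 and 0.787). The sign also turned without R/R replicate 1 for Ifnar1 (-0.02) and without R/R replicate 3 for Jak2 (-0.01). The removal of WT replicate 3 is given again beside Stat2, Irf9 and the ISGF3 targets.

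None of the 9 genes differed between R/R and WT lungs at an adjusted p of 0.05 over all tested genes, where 1.75% of the tested genes did in either direction and 1.1% did so with the lower level in R/R. The 4 receptor chains and the 3 kinases had log2 fold changes between -0.06 and 0.03, and the 95% intervals of their R/R to WT ratios lay between 0.849 and 1.13. Stat2 and Irf9 had the lowest ratios of the 9. Irf9 alone passed an unadjusted p of 0.05, as did 14.2% of the tested genes, and Irf9 alone had no overlap between the genotypes, as did 18.7% of the tested genes in either direction and 9.5% with R/R below WT. Of the 9 genes, 7 had a negative log2 fold change and the median was -0.03. Over all tested genes 48.8% were lower in R/R and the median was 0.005. Apart from Stat2 and Irf9, the negative values lay between -0.06 and -0.001. Each of these small values turned positive in at least 1 fit that left out 1 lung.

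Ifnar1, the signal-transducing chain of the type I receptor (ENSMUSG00000022967.13, plus strand of chr16:91485238-91507441 in mm10), was measured at 126, 111 and 119 CPM across R/R replicates 1 to 3 and at 115, 123 and 110 CPM across WT replicates 1 to 3, and lungs are given in this order from here on. The highest lung was an R/R lung and the lowest a WT lung, and the genotypes overlapped. The means were 119 ± 7.77 CPM in R/R and 116 ± 6.2 CPM in WT (SD, n = 3 each), a log2 fold change of 0.03 ± 0.07 SE (95% interval -0.11 to 0.18, adjusted p = 0.882 by edgeR's quasi-likelihood test). A fall of Ifnar1 below 0.926 of the WT level thus lay outside the interval.

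Ifnar2, the chain that binds type I interferon tightly (ENSMUSG00000022971.18, plus strand of chr16:91372783-91405589), stood at 71.0, 59.8 and 62.6 CPM in the R/R lungs and at 68.3, 64.4 and 61.7 CPM in the WT lungs. The R/R lungs held both the highest and the lowest value. The log2 fold change was -0.01 ± 0.08 SE (95% interval -0.17 to 0.16, adjusted p = 0.982). Of its 3329 annotated exon bases, 315 (9.46%) are shared on the same strand with the predicted gene Gm21970, which had 0 counts in every lung, and read pairs over both genes were not counted.

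Ifngr1, the chain that binds IFN-γ (ENSMUSG00000020009.13, plus strand of chr10:19591949-19610229), was at 176, 177 and 159 CPM in the R/R lungs and at 181, 162 and 169 CPM in the WT lungs. Both genotypes had a mean of 171 CPM, with an SD of 9.8 in R/R and 9.76 in WT. The 95% interval of the log2 fold change ran from -0.14 to 0.14. Ifngr2, the partner chain that brings JAK2 (ENSMUSG00000022965.8, plus strand of chr16:91547072-91565623), was at 73.3, 73.2 and 74.0 CPM in the R/R lungs and at 72.2, 79.2 and 73.4 CPM in the WT lungs. The R/R lungs lay within 1 CPM of each other and inside the WT range. The log2 fold change of Ifngr2 was -0.03 ± 0.06 SE (95% interval -0.16 to 0.10, adjusted p = 0.892).

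Ifnar2, Ifnar1 and Ifngr2 lie on one strand in a stretch of 193 kb (chr16:91372783-91565623) that holds 12 genes of the table. Of these, 5 were tested and 0 were called, against 1.75% of all tested genes. The remaining pair were Il10rb, the shared chain of the IL-10 and IFN-λ receptors, and the non-coding gene A930006K02Rik. Il10rb was at 48.5, 50.4 and 49.1 CPM in R/R lungs and at 42.9, 44.0 and 48.8 CPM in WT lungs, a log2 fold change of 0.12 ± 0.07 SE (adjusted p = 0.474). A930006K02Rik was at or below 2.85 CPM in every lung, with a log2 fold change of -0.40 ± 0.26 SE (adjusted p = 0.544).

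Jak1, the kinase shared by the type I and type II receptors (ENSMUSG00000028530.14, minus strand of chr4:101152367-101265282), was the most counted of the 9 genes, with 296, 296 and 272 CPM in R/R lungs and 307, 279 and 293 CPM in WT lungs. Its log2 fold change was -0.03 ± 0.06 SE (95% interval -0.16 to 0.11, adjusted p = 0.907). Jak2, the partner kinase at the IFN-γ receptor (ENSMUSG00000024789.13, plus strand of chr19:29251828-29313080), was at 89.2, 93.7 and 94.7 CPM in R/R lungs and at 92.1, 99.1 and 84.4 CPM in WT lungs. The WT lungs of Jak2 spanned the R/R lungs, and the log2 fold change was 0.01 ± 0.07 SE (95% interval -0.14 to 0.16, adjusted p = 0.972). Tyk2, the kinase held by IFNAR1 (ENSMUSG00000032175.11, minus strand of chr9:21104068-21131243), was at 69.3, 63.1 and 78.8 CPM in R/R lungs and at 75.3, 70.5 and 74.9 CPM in WT lungs. The R/R lungs of Tyk2 again held both extremes, and the log2 fold change was -0.06 ± 0.08 SE (95% interval -0.24 to 0.11, adjusted p = 0.788). Counting was done without strand, and 554 exon bases of Tyk2 (8.07%) are also annotated on the opposite strand as 1700084C06Rik, which had 1 count in 1 lung and 0 in the others. Read pairs over both of these genes were not counted, so the level of Tyk2 may be understated.

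Stat2, the STAT protein specific to the type I and type III interferon response (ENSMUSG00000040033.16, plus strand of chr10:128270559-128292849), was at 76.7, 80.7 and 94.5 CPM across R/R replicates 1 to 3 and at 98.0, 98.4 and 84.2 CPM across WT replicates 1 to 3. R/R replicate 3 lay above WT replicate 3 and below the other WT lungs, so that the genotypes overlapped. The means were 84.0 ± 9.36 CPM in R/R and 93.5 ± 8.04 CPM in WT (SD, n = 3 each). The log2 fold change of -0.16 ± 0.09 SE (95% interval -0.34 to 0.03) had an adjusted p of 0.465 by edgeR's quasi-likelihood test, and the exact two-sided permutation p was 0.2. Without WT replicate 3 the log2 fold change of Stat2 was -0.23 and its adjusted p 0.194, and without R/R replicate 3 they were -0.25 and 0.21.

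Irf9, the DNA-binding part of ISGF3 (ENSMUSG00000002325.15, plus strand of chr14:55603571-55610030), was at 65.7, 69.8 and 69.2 CPM across R/R replicates 1 to 3 and at 87.6, 86.0 and 72.0 CPM across WT replicates 1 to 3. The R/R lungs all lay below the WT lungs, but WT replicate 3 was closer to the R/R lungs than to the other WT lungs. The means were 68.2 ± 2.22 CPM in R/R and 81.9 ± 8.59 CPM in WT (SD, n = 3 each), a log2 fold change of -0.26 ± 0.08 SE with a 95% interval of -0.43 to -0.10. Of the 5386 annotated exon bases of Irf9, 123 (2.28%) are shared on the same strand with Rnf31, which had 923 to 989 counts per lung, and read pairs over both genes were not counted. The interval of the R/R to WT ratio of Irf9, 0.741 to 0.936, did not hold 1, and the unadjusted p was 0.00523. Over all tested genes the adjusted p was 0.129 by edgeR's quasi-likelihood test, and the exact two-sided permutation p was 0.1, the smallest that 3 lungs against 3 allow. Without WT replicate 3 the log2 fold change of Irf9 was -0.35 and its adjusted p 0.0134, and over the 6 analyses that each left out 1 lung the adjusted p ranged from 0.0134 to 0.39.

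**Figure D1:**
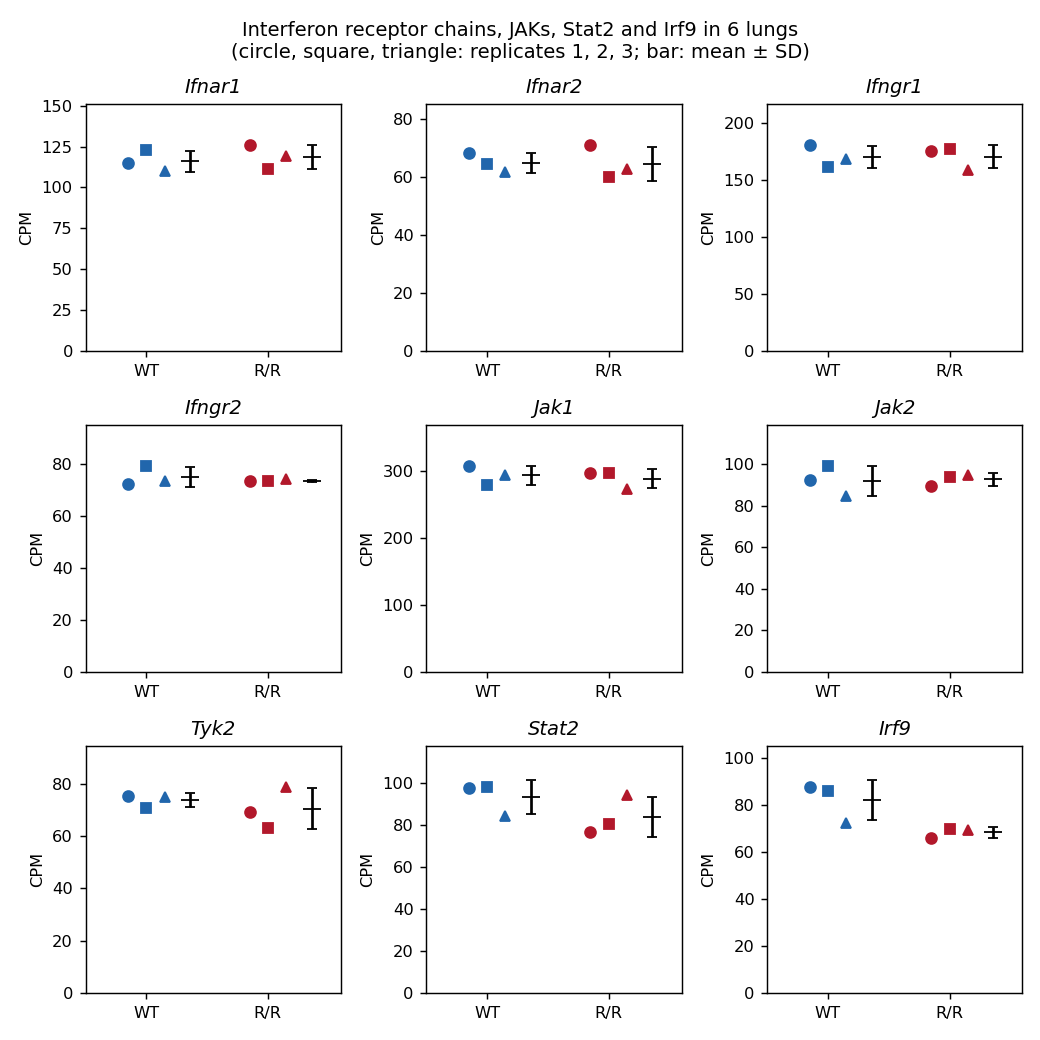
CPM (linear axes from 0) of each of the 9 genes in the 3 WT lungs (blue) and the 3 R/R lungs (red), with symbols for replicates 1, 2 and 3 and a black bar for the mean ± SD. The genotypes overlap in 8 panels, and in the Irf9 panel the R/R lungs (65.7 to 69.8 CPM) lie below the WT lungs (72.0 to 87.6 CPM).

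**Figure D2:**
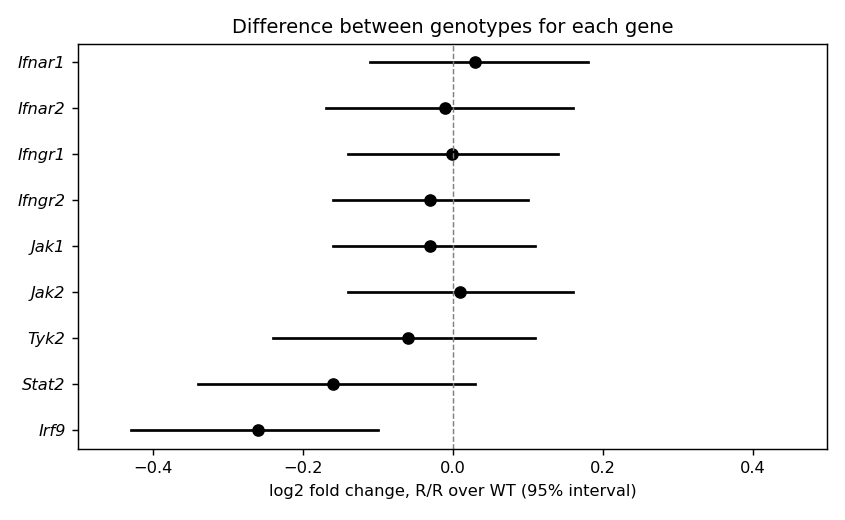
Log2 fold change of R/R over WT for each of the 9 genes (point) with its 95% interval (line) from edgeR's quasi-likelihood fit. The intervals of the 4 receptor chains, the 3 kinases and Stat2 hold 0, and that of Irf9 runs from -0.43 to -0.10.

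For the 7 receptor and kinase genes no lung deviated from the gene's own mean over the 6 lungs by more than 0.19 on the log2 scale. When Irf9 and Stat2 were set against the geometric mean of these 7 genes in the same lung, in TPM (a level corrected for gene length and summing to the same total in each lung), the ratio of Irf9 was 0.518, 0.578 and 0.559 in R/R replicates 1 to 3 and 0.688, 0.685 and 0.593 in WT replicates 1 to 3. The ratio of Stat2 was 0.550, 0.608 and 0.695 in R/R lungs and 0.699, 0.712 and 0.630 in WT lungs, with R/R replicate 3 among the WT lungs. These ratios do not depend on library scaling. They were chosen after the values were seen and were given no test.

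Upstream sequences of the members were searched for both elements, since ISGF3 binds the ISRE and a regulatory sequence shows which members carry one near their start. The RefSeq windows (GRCm38.p6) hold 300 bases, from 250 before to 50 after each start, and the ISRE was searched as GAAANNGAAA and the GAS element as TTCNNNGAA, on both strands. The ISRE letters occur in 3.44% and the GAS letters in 8.3% of 32851 windows. All 9 genes had a window, Irf9 having a pair of starts. The ISRE letters occurred in 1 of the 9, Stat2, and the GAS letters in 2, Ifnar2 and Ifnar1. The matches are printed with 10 flanking bases on the 5′ side and the match in capitals, read on the strand of the gene.
Stat2, ISRE letters on the reverse strand, 222 bases before the start, chr10:128270266-128270295: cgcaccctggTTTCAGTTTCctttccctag
Ifnar2, GAS letters, 214 bases before the start, chr16:91372559-91372588: tgccaaggccTTCCTGGAAgaagagagtac
Ifnar1, GAS letters, 5 bases before the start, chr16:91485200-91485229: ggcgggggcgTTCACGGAAggggcggggcg
Neither set of letters occurred in the windows of Irf9. Both windows begin inside the gene as counted, at chr14:55603735 and chr14:55604329 against a gene start of chr14:55603571. Bases before that gene start were not searched. The 100 bases before each RefSeq start of Irf9 are shown because Irf9 had the lowest ratio of the 9 genes.
Irf9, first start, plus strand, chr14:55603885-55603984: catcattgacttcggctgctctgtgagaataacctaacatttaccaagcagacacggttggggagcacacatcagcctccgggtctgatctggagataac
Irf9, second start, plus strand, chr14:55604479-55604578: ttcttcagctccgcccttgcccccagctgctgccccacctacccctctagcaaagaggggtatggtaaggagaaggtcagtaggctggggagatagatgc
A match is a description of letters in these windows, and no match says only that these letters are not there.

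Levels of different genes were compared per length, in TPM over the 6 lungs. Ifngr1 was the highest, at 202 ± 11.7 TPM (SD, n = 6; range 188 to 222), followed by Jak1 at 136 ± 7.25 TPM (range 126 to 148), and the order Ifngr1 over Jak1 held in 6 of 6 lungs without overlap. Ifnar1 (66.7 ± 4.77 TPM), Ifngr2 (66.5 ± 3.49 TPM), Ifnar2 (65.6 ± 5.54 TPM) and Jak2 (61.9 ± 4.33 TPM) came next and could not be ordered, since neighbours kept their order in only 3 or 4 of 6 lungs. The chains of the type I receptor were thus at near-equal mRNA levels, whereas Ifngr1 exceeded Ifngr2 by a factor of 2.71 to 3.32 in each lung. Stat2 (50.6 ± 6.53 TPM) lay below Jak2 and above Irf9 (47.1 ± 7.1 TPM) in 6 of 6 lungs, although their ranges overlapped. Tyk2 was the lowest, at 35.4 ± 3.25 TPM, below Irf9 in 6 of 6 lungs and without overlap. Annotated length is the sum of all exon bases of a gene, so a gene with long exons that are little used is understated. Irf9 may be such a gene, since its 5386 annotated exon bases cover most of its span (chr14:55603571-55610030). Its place below Stat2 may therefore rest on this length, which was not tested.

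**Figure D3:**
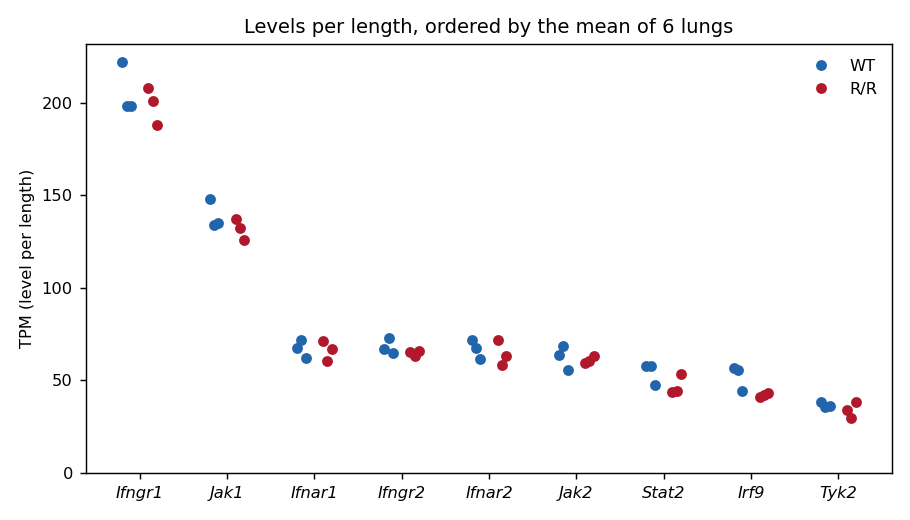
TPM (linear axis from 0) of the 9 genes in the 3 WT lungs (blue) and 3 R/R lungs (red), ordered by the mean of 6 lungs. Ifngr1 (188 to 222 TPM) and Jak1 (126 to 148 TPM) stand above the rest, Ifnar1, Ifngr2, Ifnar2 and Jak2 lie together, and Tyk2 is lowest.

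The balance between partners was compared within each lung. The ratio of Ifnar1 to Ifnar2 was 0.997, 1.04 and 1.06 in R/R lungs and 0.944, 1.07 and 1 in WT lungs, a difference of 0.04 on the log2 scale. The ratio of Ifngr1 to Ifngr2 differed by 0.02, that of Jak1 to Jak2 by -0.04 and that of Jak1 to Tyk2 by 0.04 on the log2 scale. The ratio of Jak1 to Tyk2 was more spread in R/R lungs (3.28 to 4.46) than in WT lungs (3.72 to 3.87), with R/R replicates 2 and 3 at the extremes. The difference of Jak1 to Tyk2 was -0.05 without R/R replicate 2 and 0.17 without R/R replicate 3, and that of Jak1 to Jak2 ran from -0.13 (without WT replicate 2) to 0.02 without 1 lung. The ratio of Stat2 to Irf9 was 1.06, 1.05 and 1.24 in R/R lungs and 1.02, 1.04 and 1.06 in WT lungs, a difference of 0.10 on the log2 scale that was 0.02 without R/R replicate 3. Among these 5 ratios the smallest exact two-sided permutation p was 0.3, and all 5 had an adjusted p of 0.7.

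The genes whose pattern over the 6 lungs was most like that of Irf9 were Ncapd2, Sema3f and Heg1, with root mean square distances of 0.031, 0.033 and 0.036 in centred log2 CPM among 14199 genes compared. Ncapd2 encodes a condensin subunit, Sema3f a secreted semaphorin, and Heg1 a membrane protein of endothelium. Heg1 was at 667, 705 and 694 CPM in R/R lungs and at 893, 818 and 705 CPM in WT lungs. WT replicate 3 was the lowest WT lung for Heg1 as for Irf9, which follows from the choice of Heg1 by its likeness to Irf9. The adjusted p of Ncapd2, Sema3f and Heg1 was 0.159, 0.191 and 0.232 by edgeR's quasi-likelihood test.

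The ligands were at or near the limit of detection. Of 21 interferon genes, 18, Ifnb1 among them, had 0 counts in every lung, and 0 passed the filter for testing. A count of 0 allows up to 3 counts, or 0.165 to 0.182 CPM per lung. Ifng had 3, 0 and 3 counts in R/R replicates 1 to 3 and 5, 6 and 2 counts in WT replicates 1 to 3. Ifnk had at most 6 counts and Ifnz at most 2 in any lung. A difference in ligand mRNA between the genotypes was not detectable at this depth.

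Among 9 further core genes of the pathway, all tested, 0 were called, against 1.75% of all tested genes. They comprise Jak3, the remaining STATs and the IFN-λ receptor chains, and 6 were lower and 3 higher in R/R, with a median log2 fold change of -0.05. Stat5b, a STAT used by growth hormone and the interleukin-2 family, had a log2 fold change of -0.10 ± 0.06 SE (adjusted p = 0.497), and Ifnlr1, the specific chain of the IFN-λ receptor, had -0.02 ± 0.12 SE (adjusted p = 0.971).

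Other cytokine receptors that signal through JAKs numbered 30, of which 20 were lower and 10 higher in R/R lungs (median log2 fold change -0.06), and 1 (3.33%) fell, against 1.1% of all tested genes. This was Il21r, the IL-21 receptor of lymphocytes, at 6.10, 5.98 and 3.83 CPM in R/R lungs and 10.7, 8.67 and 11.1 CPM in WT lungs (log2 fold change -0.93 ± 0.19 SE, adjusted p = 0.0341 by edgeR's quasi-likelihood test). The call was lost without WT replicate 1, and also without either R/R replicate 2 or R/R replicate 3. The 10 T cell markers were all lower in R/R, none called, and their summed level was 40.6 to 51.4 CPM against 61.6 to 80.4 CPM in WT. The 8 B cell markers were all lower, 4 of them called, with a sum of 103 to 138 CPM against 182 to 229 CPM. Over all tested genes 48.8% were lower in R/R and 1.1% were called lower. No marker of either list was at 0 in the lungs, and their part in the level of Il21r was not tested.

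Negative regulators of the pathway numbered 22, of which 10 were lower and 12 higher (median log2 fold change 0.01), and 1 (4.55%) fell, against 1.1% of all tested genes. This was Ptpn6, the phosphatase SHP-1 of blood cells, at 56.8, 52.4 and 56.3 CPM in R/R lungs and 68.6, 65.0 and 68.2 CPM in WT lungs (log2 fold change -0.29 ± 0.06 SE, adjusted p = 0.0444 by edgeR's quasi-likelihood test). The call was lost when any 1 lung was left out and with limma-voom, and the part of the lymphocyte markers above in it was not tested. The feedback inhibitors Socs1, Socs3 and Usp18, which interferon signaling itself induces, had log2 fold changes of -0.13, 0.01 and -0.04 (adjusted p = 0.771, 0.978 and 0.906).

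Of the 8 other interferon regulatory factors, 5 were lower and 3 higher in R/R lungs (median log2 fold change -0.06), and 1 (12.5%) fell, against 1.1% of all tested genes. Irf7, an ISGF3 target that drives the later wave of type I interferon, was at 23.1, 27.4 and 28.3 CPM in R/R lungs and at 35.8, 39.4 and 37.9 CPM in WT lungs. The genotypes did not overlap, and the log2 fold change was -0.52 ± 0.09 SE (adjusted p = 0.0172 by edgeR's quasi-likelihood test). The call was lost on leaving out replicate 2 of either genotype. The called shares of the cytokine receptors, the negative regulators and these factors rest on 1 gene each. No test set those shares against that of all tested genes. Irf1, the early IFN-γ target, had a log2 fold change of 0.05 ± 0.06 SE (adjusted p = 0.781).

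Of 36 listed ISGF3 targets, all tested, 34 were lower in R/R and the median log2 fold change was -0.22 against 0.005 over all tested genes. Of these targets 4 fell at an adjusted p of 0.05 (11.1% of the list, against 1.1% of all tested genes) and 0 rose. At an unadjusted p of 0.05, 17 were lower, as were 7.68% of all tested genes, and 19 had no overlap with R/R below WT, as had 9.5% of all tested genes. The called genes were Oasl2, Cmpk2, Oas3 and Rsad2. Oasl2, of the oligoadenylate synthetase family, was at 67.7, 64.5 and 72.0 CPM in R/R lungs and 92.3, 93.8 and 85.8 CPM in WT lungs (log2 fold change -0.41 ± 0.06 SE, adjusted p = 0.0115). Cmpk2, a mitochondrial nucleotide kinase, was at 35, 31.8 and 32.2 CPM in R/R lungs and 47.6, 46.7 and 42.4 CPM in WT lungs (log2 fold change -0.46 ± 0.08 SE, adjusted p = 0.0150).

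Oas3, which makes the activator of RNase L, was at 5.16, 4.48 and 6.07 CPM in R/R lungs and 10.5, 8.06 and 10.4 CPM in WT lungs (log2 fold change -0.88 ± 0.17 SE, adjusted p = 0.0308). Rsad2, the antiviral enzyme viperin, was at 6.05, 6.34 and 8.01 CPM in R/R lungs and 12.4, 12.2 and 10.1 CPM in WT lungs (log2 fold change -0.77 ± 0.15 SE, adjusted p = 0.0321). All 4 genes had the R/R lungs below the WT lungs, as had 9.5% of all tested genes. Genes called in these same lungs are likely to show this, so it adds nothing to the calls. For 3 of the 4, Oasl2, Cmpk2 and Rsad2, WT replicate 3 was the lowest WT lung, as it was for Irf9. The share of all tested genes with this lung lowest was not counted. The median deviation of the 36 targets from their own means was -0.13, -0.11 and -0.09 in R/R replicates 1 to 3 and 0.14, 0.13 and 0.02 in WT replicates 1 to 3. The number of called targets was 9 without WT replicate 3, 2 without either R/R replicate 1 or WT replicate 2, and 0 on leaving out either R/R replicate 2 or WT replicate 1. The list was written with earlier results of these data known, and its direction is not independent evidence.

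Of Irf7 and the 4 called targets, 2 had the ISRE letters in the window around a RefSeq start, and their matches are shown for comparison with that of Stat2.
Oas3, ISRE letters, 75 bases before the start, minus strand, chr5:120777715-120777744: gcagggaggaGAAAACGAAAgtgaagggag
Rsad2, ISRE letters on the reverse strand of the gene, 120 bases before the start, minus strand, chr12:26456553-26456582: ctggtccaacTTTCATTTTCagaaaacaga
Oas3 and Rsad2 were searched because they were called, so their fall beside Stat2, which did not pass the test, follows from this choice. The uncalled ISGF3 targets were not searched.

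Targets of IFN-γ gave no calls. Of 30 listed genes 28 were tested, 11 were lower and 17 higher in R/R lungs, and the median log2 fold change was 0.04. By edgeR's quasi-likelihood test 0 were called, with 2 at an unadjusted p of 0.05. Over all tested genes 48.8% were lower, 1.75% were called and 14.2% passed the unadjusted p. With so few listed genes, 0 calls lie near that share. Gbp2, a guanylate-binding protein, was at 73.0, 75.2 and 66.2 CPM in R/R lungs and 61.8, 60.0 and 56.8 CPM in WT lungs (log2 fold change 0.26 ± 0.07 SE, adjusted p = 0.083 by edgeR's quasi-likelihood test). Icam1, an adhesion molecule, and Psmb9, an immunoproteasome subunit, had log2 fold changes of 0.14 and 0.15 (adjusted p = 0.273 and 0.366). Whether this list differs from that of the ISGF3 targets was not tested.

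**Figure D4:**
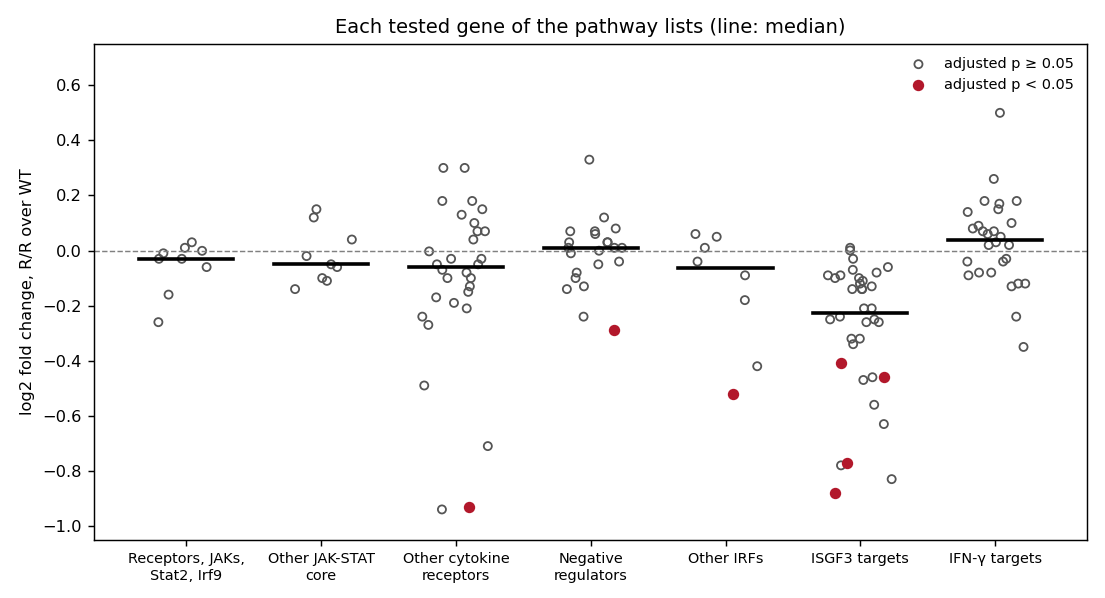
Log2 fold change of R/R over WT (linear axis) for every tested gene of the 9 members and 6 pathway lists, with genes at an adjusted p under 0.05 in filled red and a black line at each list's median. The medians lie between -0.06 and 0.04 except for the ISGF3 targets, at -0.22, and the 7 called genes all lie below 0.

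**Figure D5:**
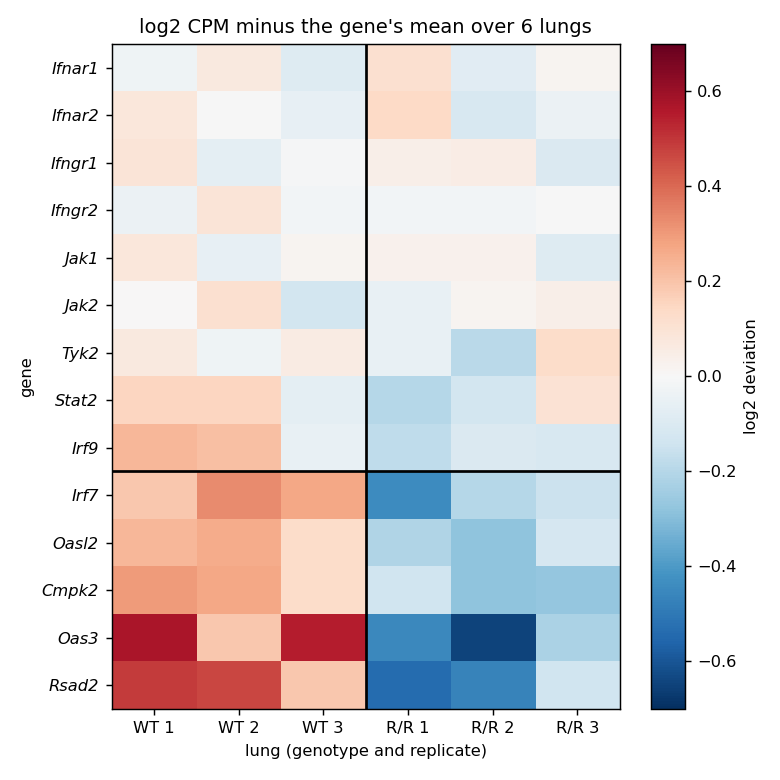
Colour gives log2 CPM minus the gene's mean over 6 lungs for the 9 genes (upper rows), Irf7 and the 4 called ISGF3 targets (lower rows), with WT lungs left and R/R lungs right of the black line. The rows of the receptors and kinases hold no deviation over 0.19, and in the rows of Stat2 and Irf9 WT replicate 3 is paler than the other WT lungs.

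Summed levels of cell type markers are given beside these values. Of all tested genes, 48.8% were lower in R/R and 1.75% were called in either direction. Alveolar macrophage markers summed to 927 to 1057 CPM in R/R against 651 to 833 CPM in WT lungs, with 8 of 9 higher and 1 called, and alveolar type 2 markers to 22357 to 23593 against 17571 to 21823 CPM, with 7 of 7 higher and 0 called. Fibroblast and smooth muscle markers summed to 3051 to 3411 CPM in R/R and 3435 to 4124 CPM in WT, with 6 of 8 lower and 0 called. All 6 tested neutrophil markers were lower in R/R, none called, with a median log2 fold change of -1.16, and the sum over the list was 65.9 to 95.7 CPM in R/R and 69.1 to 195 CPM in WT. All 6 tested cardiac muscle markers were lower, none called, with a median of -1.20 and a sum of 59.9 to 115 CPM against 81.9 to 246 CPM. These sums overlapped between the genotypes, as did those of the monocyte, dendritic cell, NK cell, endothelial, alveolar type 1 and airway markers. Endothelial markers, 6 of 7 lower with 0 called, summed to 4594 CPM in WT replicate 3 and to 5163 and 5175 CPM in the other WT lungs, against 4544 to 4733 CPM in R/R, so that WT replicate 3 lay within the R/R range. No marker of these lists was at 0. The part of these cell types in the levels of Irf9, Stat2, Ptpn6 and the ISGF3 targets was not tested.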

How the data were processed

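Whole lungs (3 R/R, 3 WT) were sequenced as paired-end libraries, and samples were grouped by the labels. Alignment to mm10 (GRCm38) was done by the authors in HISAT2 2.1.0. They deposited unnormalized featureCounts 2.0.1 output, the count of read pairs on each GENCODE M25 gene. Pairs over several genes were not counted. No strand option was set, although the supplement describes the sequencing as stranded, so opposite-strand overlaps cannot be separated. One deposited column carries the unit estimated count in the records here, since the opening comment of the table was misread by a unit check, but all 6 are raw whole-number counts with no rounding. DESeq2 appears in the submitters' processing notes and edgeR in the study's supplement. The labels and the supplement name different RNA extraction methods.

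Symbols and coordinates came from the annotation of the same assembly for 55141 of 56262 identifiers. Genes were filtered with filterByExpr (minimum count 10, minimum total 15), scaled by TMM and compared with the quasi-likelihood test of edgeR 4.0.16 in R 4.3.3, with Benjamini-Hochberg adjustment over 17120 genes and a call at an adjusted p of 0.05. Every adjusted p is from this test unless stated. CPM used TMM-scaled library sizes, and 95% intervals used the 11.7 total degrees of freedom of the fit. Ratios of TPM were compared by exact two-sided permutation (smallest p 0.1). Counting error of a single value was 1.41 to 3.0% for the 9 genes, whose counts ran from 1001 to 5326. Limits derived from a count of 0 cover only counting error, and p-values measure the spread between 3 animals a group.

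The members and all lists were chosen with earlier results of these data known. Named genes were the 9 members, Ifng, Ifnb1 and Rbm47, every called gene of each list or else the 3 with the smallest p, the tested genes of the chromosome 16 stretch and the 3 nearest to Irf9 by pattern. Socs1, Socs3, Usp18, Irf1, Ifnlr1, Ifnk and Ifnz were added after their values were seen. One gene that the rule would name is not reported here. Alternatives were limma-voom (limma 3.58.1), DESeq2 1.42.0 and the exact test of edgeR, other scalings, filters and thresholds, a replicate block and each lung left out in turn. The tests were checked on simulated counts. No pair of lungs of the same genotype agreed within sampling noise (chi-square per degree of freedom 5.65 to 9.09).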

Additional observations from a re-analysis of the deposited data

How the results depend on the processing

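The number of the 9 genes called was 0 with DESeq2, edgeR's exact test, limma-voom, 4 other scalings or CPM filter settings, the replicate block and an adjusted p of 0.10, and 1 (Irf9) with no filter, without WT replicate 3 and at an unadjusted p of 0.05. For Irf9 the log2 fold change was -0.26 with no filter (adjusted p 0.02), from -0.35 to -0.22 without 1 lung, and the adjusted p over 9 alternatives ranged from 0.02 to 0.146. With no filter the prior degrees of freedom of the fit became infinite, against 7.66 in the fit reported. For Stat2 the log2 fold change ran from -0.25 to -0.10 without 1 lung, and the adjusted p from 0.403 to 0.585 over 9 alternatives. The sign of the small fold changes was not stable. Ifngr1 gave 0.004 with no filter and 0.002 with upper-quartile factors, and without 1 lung the log2 fold change ran from -0.02 to 0.08 for Ifnar1, -0.08 to 0.04 for Ifnar2, -0.04 to 0.05 for Ifngr1, -0.06 to 0.01 for Ifngr2, -0.06 to 0.01 for Jak1, -0.05 to 0.07 for Jak2 and -0.15 to 0.01 for Tyk2.

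Over all tested genes, 300 calls became 529 with DESeq2, 630 with edgeR's exact test, 1109 with no filter, 548 at an adjusted p of 0.10, 2433 at an unadjusted p of 0.05 and 65 (without WT replicate 1) to 621 (without WT replicate 3) without 1 lung. Calls among cytokine receptors were 2 with no filter, 2 with the replicate block, 5 at an unadjusted p of 0.05 and 0 to 2 without 1 lung. Calls among negative regulators were 0 with limma-voom, 3 with no filter, 3 at an unadjusted p of 0.05 and 0 whichever lung was left out. Calls among interferon regulatory factors were 3 at an unadjusted p of 0.05 and 0 to 1 without 1 lung. Calls among ISGF3 targets were 9 with edgeR's exact test, 12 with no filter, 9 at an adjusted p of 0.10, 17 at an unadjusted p of 0.05 and 0 to 9 without 1 lung. Calls among IFN-γ targets were 1 with edgeR's exact test, 2 with no filter, 1 at an adjusted p of 0.10, 2 at an unadjusted p of 0.05 and 0 whichever lung was left out. The cause of these changes was not tested.

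Replicate numbers are shared between the genotypes, and lungs of the same number deviated together by correlations of 0.016, 0.012 and 0.022 over 14200 genes. Lungs of different number gave lower correlations, from -0.022 to 0.007. All these values were near 0, so the numbers were not taken as pairs. With the replicate block 0 of the 9 genes were called, and calls over all tested genes went from 300 to 446. The order of levels per length kept 7 to 9 of its 9 places without 1 lung. With 3 lungs a genotype, a true change of the receptor or kinase genes inside the printed intervals could not be seen.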
